A study of Mus musculus with 2 samples.

Results

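Cholesterol is built from acetyl-CoA by the mevalonate pathway and the sterol steps that follow squalene, and the genes of these enzymes are switched on together by SREBP transcription factors. The set described here holds 35 mouse genes: 19 enzymes of cholesterol synthesis, 5 genes of the SREBP system, the sterol carrier gene Stard4, 4 enzymes of fatty acid synthesis, 3 genes induced by the sterol-sensing receptor LXR and 3 enzymes that make or consume oxysterols. Members were picked by gene function, and each gene was read through its brightest probe set that the platform annotation assigns to that gene alone. Of the 35 genes, 34 had such a probe set, out of 18193 genes in the whole table; Acat2, the cytosolic thiolase at the head of the pathway, had none and is not analysed here. Signals were compared above a floor, a log2 value of 7 or more in either array, which 32 members and 9897 genes of the table reached.

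The tested culture was rib chondrocytes, the cells that make cartilage, from mice with genotype miR-140-/-, and it was set against the same kind of culture from wild-type mice. Animals of both groups were 5 days old and carried a strain label naming C57BL/6 and CBA. Each group is 1 Affymetrix array of 1 cultured RNA sample, and the labels do not say how many animals went into a culture. With no replicate there is no spread between cultures to hold a difference against, so every value below is a description of this pair of arrays without p-values or standard errors. Differences are log2 signal of the knockout minus log2 signal of the wild type.

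SREBP proteins are made as membrane precursors held in the endoplasmic reticulum by the escort protein SCAP and the INSIG retention proteins, and they leave for cleavage when sterols are low. SREBP2, the product of Srebf2, mainly drives cholesterol genes, and SREBP1, the product of Srebf1, mainly drives fatty acid genes. Oxysterols, the hydroxylated forms of cholesterol, lower SREBP processing and activate LXR, which turns on cholesterol export. Cartilage has no blood vessels, and inherited defects of late sterol enzymes in humans and mice include skeletal malformations. In mouse models of osteoarthritis, the oxysterol enzymes Ch25h and Cyp7b1 have been linked to cartilage breakdown.

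The RNA missing from the knockout is miR-140, a cartilage microRNA. Its 3p strand is shown to identify the deleted product, with the seed (bases 2 to 8) in capitals. The sequence is that of RefSeq on GRCm38.p6, at chr8:107551288-107551308 on the plus strand, and no search for matching sites in the members was made.
mmu-miR-140-3p: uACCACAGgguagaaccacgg

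Promoter sequences show what the synthesis genes share apart from their measured levels. RefSeq windows of 300 bases (250 before and 50 after the annotated start, GRCm38.p6) were found for 29 of the 35 members and searched on both strands for the NF-Y box CCAAT, which binds the usual partner factor of SREBP, for the sterol element TCACNCCAC and for the LXR element, a direct repeat of AGGTCA with 4 bases between the repeats. The NF-Y box was present in at least 1 window of 15 of the 16 cholesterol synthesis enzymes with a window, the exception being Acat2, and in 78.9% of their 19 windows, against 37.4% of all 32851 windows of the table. Among the other members 8 of 13 genes held it, and 50% of their 18 windows. Counted by gene, 41.1% of all 27025 genes held the box in at least 1 window. The exact sterol element was found in 1 member, Hmgcs1, and in 1.24% of all windows (1.44% of all genes). The LXR element was found in no member and in 0.0152% of all windows (0.0148% of all genes). No match says only that these letters are absent from the window.

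The 4 windows below are printed for Hmgcs1, which holds both motifs, for Nsdhl and Tm7sf2, enzymes with higher signal in the knockout array, and for Srebf1, the member with the farthest lower signal, by the most downstream of its 3 windows. They run 5′ to 3′ on the strand of the gene, and capitals mark each NF-Y box (CCAAT, or ATTGG when it lies on the opposite strand) and the sterol element. A match is a description of letters and not evidence of binding.
Hmgcs1 (chr13:119690101-119690400, plus strand): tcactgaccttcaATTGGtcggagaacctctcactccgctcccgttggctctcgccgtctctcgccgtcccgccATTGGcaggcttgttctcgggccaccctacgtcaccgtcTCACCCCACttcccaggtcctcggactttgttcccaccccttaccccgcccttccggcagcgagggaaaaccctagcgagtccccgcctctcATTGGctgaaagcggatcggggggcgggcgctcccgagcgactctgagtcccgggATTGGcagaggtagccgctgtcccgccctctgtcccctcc
Nsdhl (chrX:72918271-72918570, plus strand): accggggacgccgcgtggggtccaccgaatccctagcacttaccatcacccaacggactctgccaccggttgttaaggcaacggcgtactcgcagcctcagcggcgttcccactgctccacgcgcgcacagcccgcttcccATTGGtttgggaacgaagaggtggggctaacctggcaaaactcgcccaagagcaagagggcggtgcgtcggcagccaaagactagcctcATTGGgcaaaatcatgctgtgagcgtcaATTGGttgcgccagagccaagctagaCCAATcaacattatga
Tm7sf2 (chr19:6067801-6068100, minus strand): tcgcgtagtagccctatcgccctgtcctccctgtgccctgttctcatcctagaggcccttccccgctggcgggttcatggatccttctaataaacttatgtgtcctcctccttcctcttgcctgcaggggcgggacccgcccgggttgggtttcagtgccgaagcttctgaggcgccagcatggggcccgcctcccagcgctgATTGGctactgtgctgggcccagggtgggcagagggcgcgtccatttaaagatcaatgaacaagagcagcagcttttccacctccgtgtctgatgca
Srebf1 (chr11:60210422-60210721, minus strand): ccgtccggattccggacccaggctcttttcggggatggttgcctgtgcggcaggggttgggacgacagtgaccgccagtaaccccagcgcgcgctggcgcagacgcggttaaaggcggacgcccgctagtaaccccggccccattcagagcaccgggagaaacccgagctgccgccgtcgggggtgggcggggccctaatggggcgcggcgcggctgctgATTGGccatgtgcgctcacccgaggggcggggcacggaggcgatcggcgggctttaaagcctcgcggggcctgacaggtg

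Hmgcs1 and Nsdhl each held 4 NF-Y boxes, while Tm7sf2 and the Srebf1 window held 1 each. In Hmgcs1 the sterol element began 137 bases before the start. Mvk held 5 boxes, the most of any member. Acat2, Scap, Acaca, Elovl6, Abca1 and Ch25h held none in their windows.

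**Figure D1:**
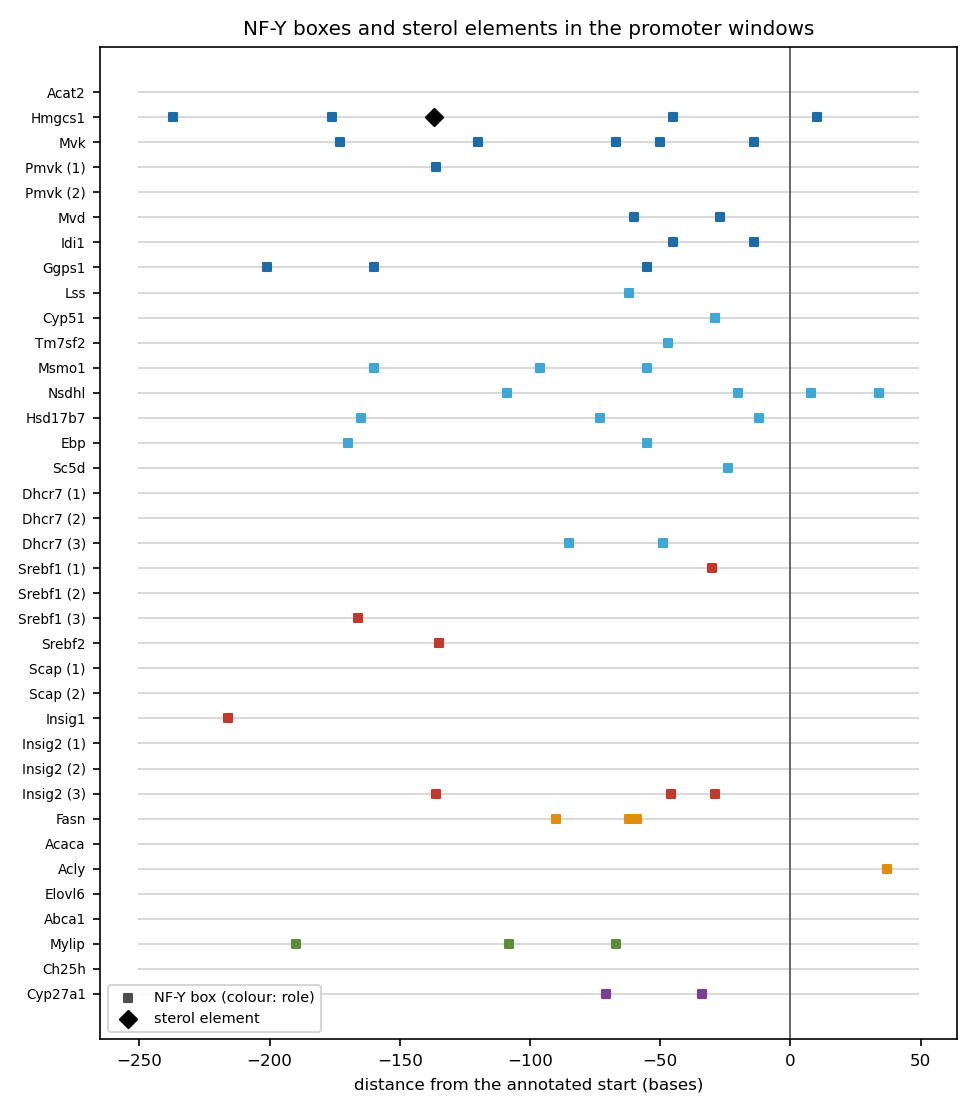
NF-Y boxes (squares, coloured by the role of the gene) and sterol elements (diamonds) in the promoter windows of the members, by distance in bases from the annotated start; genes with several windows have a row for each. The sterol element appears in Hmgcs1 and the NF-Y box in 15 of 16 cholesterol synthesis enzymes, against 41.1% of all genes.

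The deposited signals ran from 3.28 to 14.1 in the knockout array and from 3.24 to 14.2 in the wild-type array. The median difference of the 9897 genes above the floor was -0.05, and the central 95% lay between -0.69 and 0.47. Of 11 chondrocyte markers above the floor out of 12 listed, all 11 were at least 2-fold lower in the knockout array, among them Col2a1 at 11.98 in the knockout and 13.98 in the wild type; Matn1 was under the floor. In bulk RNA, fewer cells of a type and less RNA per cell cannot be told apart. Xist read 10.60 in the knockout and 7.01 in the wild type, and the Y-linked gene Eif2s3y 4.18 in the knockout and 8.86 in the wild type, so the cultures differed in sex make-up; the members Nsdhl and Ebp lie on the X chromosome. Where a gene had several probe sets above the floor, the differences of the brightest and the next brightest were compared. They were 0.18 apart in the median over 3838 genes and 0.48 apart at the 90th percentile. This gives a rough scale of disagreement between probe sets within the pair of arrays. It is not a measure of even error, since the next brightest was the more positive in 60.4% of these genes.

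Across the 32 members above the floor, differences were small. At least 2-fold higher signal was found for 1 member, Cyp7b1, where 0.475% of all genes were that much higher, and at least 2-fold lower signal for none, where 1.22% of all genes were. At 1.5-fold the counts were 1 higher (1.56% of all genes) and 1 lower, Srebf1 (3.56% of all genes). By sign, 19 members were higher and 13 lower, against 40.0% and 59.2% of all genes. The median of the 32 was 0.06. Of these 32, 31 were at or above the floor in both arrays and Cyp7b1 passed through the knockout array alone. An absolute difference above the 0.18 median gap between probe sets was reached by 18 members, and one above 0.48 by 4. The share of all genes past these gaps was not counted, so no background stands beside these counts. The quartiles of all genes above the floor were -0.18 and 0.09.

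**Figure D2:**
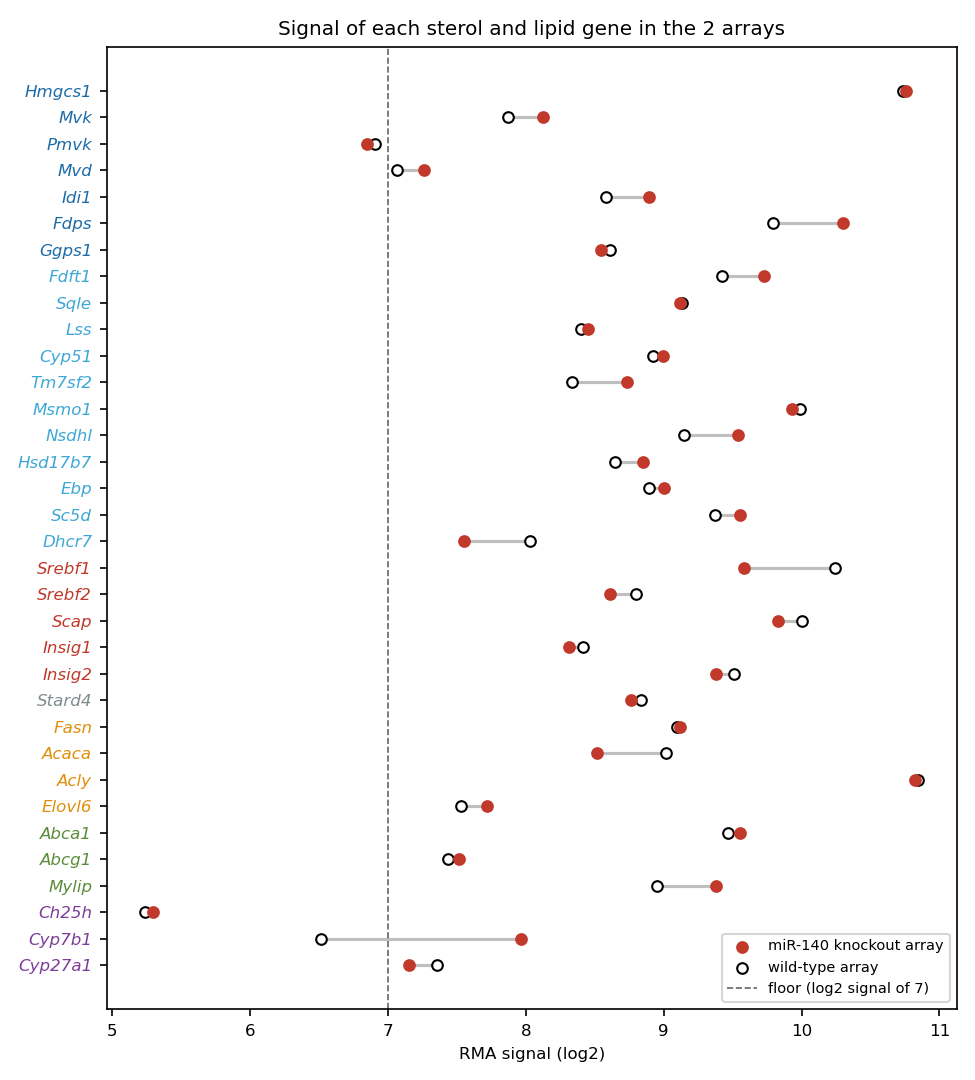
RMA signal (log2) of the 34 members with a probe set, in pathway order from top to bottom, in the knockout array (filled) and the wild-type array (open); the dashed line is the floor of 7 and label colours mark roles. Most pairs of points lie close together, and Cyp7b1 has the widest gap, at 7.97 in the knockout and 6.51 in the wild type.

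The enzymes of cholesterol synthesis leaned toward higher signal in the knockout array. Among the 17 that passed the floor, 13 had higher and 4 had lower signal by the brightest probe set (14 and 3 after median centring, which turned Sqle), where 40.0% of all genes were higher, and their median was 0.18 (1.14-fold) against -0.05 for all genes. None passed 1.5-fold in either direction. The median gap between probe sets was exceeded by 10 of the 17, a count without a share of all genes beside it. Without the X-linked Nsdhl and Ebp, 11 were higher and the median was again 0.18. It was 0.12 with the mean of all probe sets and 0.09 with probe sets of 1 transcript only, where the enzymes still lay above the median of all genes.

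In the mevalonate part, 5 of the 6 enzymes that passed the floor had higher signal, where 40.0% of all genes did, with 0.22 as their median. Fdps, which makes farnesyl diphosphate and stands at the branch to sterols and prenyl groups, read 10.30 in the knockout and 9.79 in the wild type, a difference of 0.51 (1.43-fold) and the highest of the synthesis enzymes. It rested on 1 probe set, since the other of its 2 was under the floor; averaging both gave 0.34. Idi1, the isopentenyl diphosphate isomerase, read 8.89 in the knockout and 8.58 in the wild type (0.32), and its other probe set gave 0.20. Both probe sets of Idi1 thus lay above the median of all genes.

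Mvk, mevalonate kinase, read 8.13 in the knockout and 7.87 in the wild type (0.25, and 0.07 with its other probe set). Mvd, the decarboxylase that yields isopentenyl diphosphate, was the enzyme just inside the floor, at 7.26 in the knockout and 7.06 in the wild type (0.20). Pmvk, phosphomevalonate kinase, was the member just outside, at 6.84 in the knockout and 6.90 in the wild type. These dim signals lie where RMA compresses differences.

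Hmgcs1, the HMG-CoA synthase that carries the sterol element, read 10.76 in the knockout and 10.73 in the wild type, a difference of 0.03. The 4 Hmgcs1 probe sets that passed the floor gave 0.03 to 0.54, all of them higher, so the size of its difference depends on the probe set. Ggps1, which makes geranylgeranyl diphosphate for protein prenylation, read 8.54 in the knockout and 8.61 in the wild type (-0.07). Its other 3 probe sets gave 0.07 to 0.23, so no direction is given for Ggps1.

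In the steps from squalene to cholesterol, 8 of 11 enzymes were higher by the brightest probe set, where 40.0% of all genes were. Their median was 0.10. The 8 include Sc5d, whose probe sets had mixed signs, and the X-linked Nsdhl and Ebp. Fdft1, squalene synthase, read 9.73 in the knockout and 9.43 in the wild type (0.30, 0.17 with its other probe set above the floor, 0.01 when all its probe sets are averaged). Sqle, squalene epoxidase and a main control point, was nearly equal at 9.12 in the knockout and 9.13 in the wild type (-0.01), and its sign turned to 0.03 with median centring. Lss, lanosterol synthase, was also nearly equal, at 8.45 in the knockout and 8.40 in the wild type (0.05). Sqle and Lss therefore differed by less than the median gap between probe sets.

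Cyp51, the lanosterol demethylase, read 9.0 in the knockout and 8.92 in the wild type (0.07, and 0.27 with its other probe set). Tm7sf2, a sterol reductase acting after Cyp51, read 8.73 in the knockout and 8.33 in the wild type, a difference of 0.40 (1.32-fold). Nsdhl, the dehydrogenase that removes methyl groups at the sterol ring, was similar at 9.54 in the knockout and 9.15 in the wild type (0.39, 1.31-fold). Tm7sf2 and Nsdhl have 1 probe set each, so neither has a second measurement on these arrays, and 3.44% and 3.63% of all genes had larger positive differences.

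Msmo1, the methylsterol oxidase that acts with Nsdhl, was nearly equal, at 9.93 in the knockout and 9.99 in the wild type (-0.06). Hsd17b7, the reductase of the same demethylation complex, read 8.85 in the knockout and 8.65 in the wild type (0.20), with probe sets from 0.03 to 0.28. The members of this complex thus differed in size by the brightest probe set. Msmo1 differed by less than the median gap between probe sets, so no direction is given for it.

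Ebp, the sterol isomerase, read 9.0 in the knockout and 8.90 in the wild type (0.10). Sc5d, a sterol desaturase, read 9.55 in the knockout and 9.37 in the wild type (0.18), but its probe sets ranged from -0.34 to 0.21 and no direction is given. Dhcr7, a reductase of the final step, was the exception of the pathway: it read 7.55 in the knockout and 8.03 in the wild type, a difference of -0.48 (1.40-fold lower), with 4.94% of all genes lower still. The last step thus stood on the opposite side of 0 from the enzymes before it that were farthest from 0, on the evidence of 1 probe set.

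**Figure D3:**
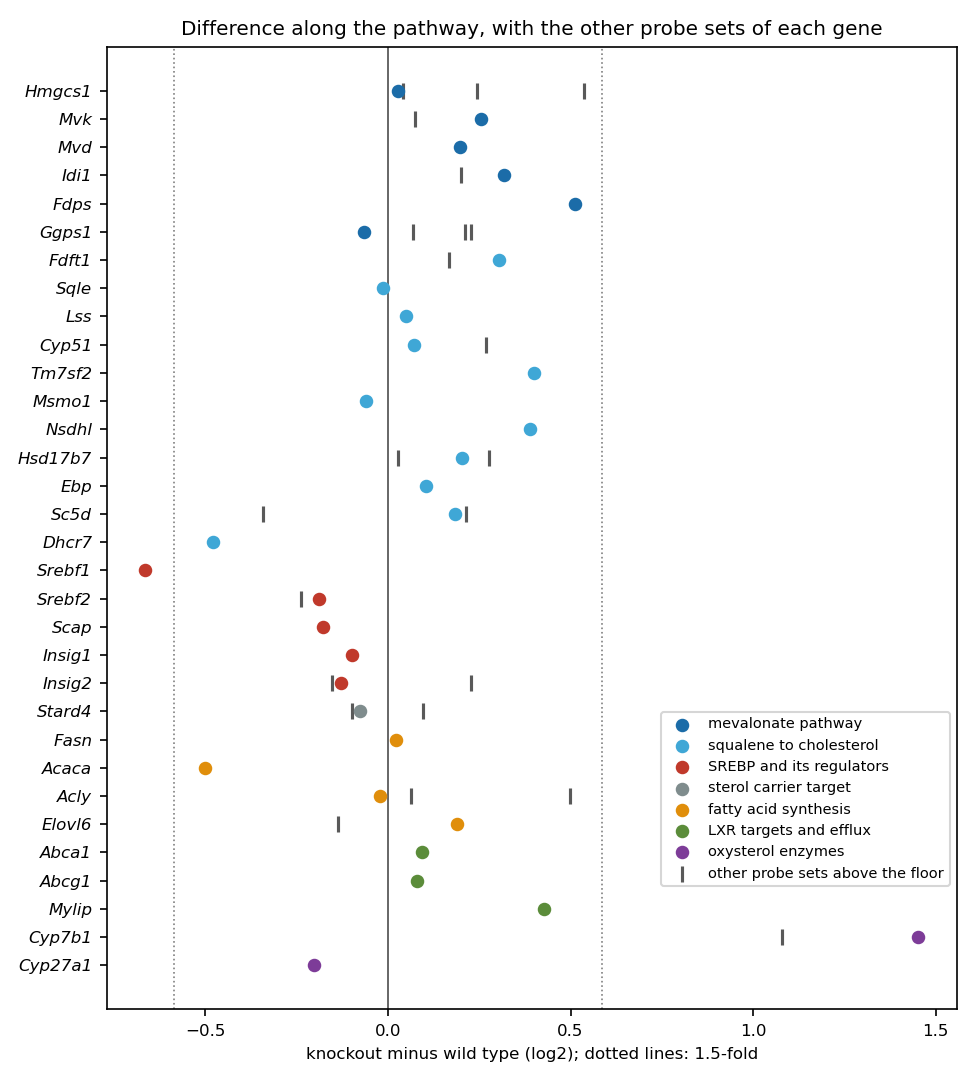
Knockout minus wild type (log2) of the 32 members above the floor, in pathway order and coloured by role; bars mark the other probe sets of the same gene above the floor, and dotted lines mark 1.5-fold. Cyp7b1 (1.45) and Srebf1 (-0.66) lie outside the dotted lines, and most synthesis enzymes lie a little to the right of 0.

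The genes of the SREBP system lay on the other side. By the brightest probe set all 5 were lower in the knockout array, though Insig2 and Scap changed sign under other probe set rules. Of all genes, 59.2% were lower. The median of the 5 SREBP genes was -0.18 (1.13-fold lower). Srebf1 read 9.58 in the knockout and 10.24 in the wild type, a difference of -0.66 (1.58-fold lower), at rank 271 of 9897 genes from the lowest. It has 1 probe set, and the array does not say which of its promoters was used. Srebf2 read 8.61 in the knockout and 8.80 in the wild type (-0.19), and its other probe set gave -0.24. Both SREBP genes were therefore lower, Srebf1 by more.

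Scap, the escort protein, read 9.83 in the knockout and 10.00 in the wild type (-0.18; 0.04 with the mean of its probe sets, 1 of which is under the floor). Insig1, itself an SREBP target, read 8.31 in the knockout and 8.41 in the wild type (-0.10). Insig2 read 9.38 in the knockout and 9.51 in the wild type (-0.13), and a further probe set gave 0.23, so no direction is given for it. Stard4, a sterol carrier protein and SREBP target, was close to equal at 8.76 in the knockout and 8.83 in the wild type (-0.08), with probe sets from -0.10 to 0.10. With the exception of Srebf1, these differences are of the size of the gap between probe sets of a gene.

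**Figure D4:**
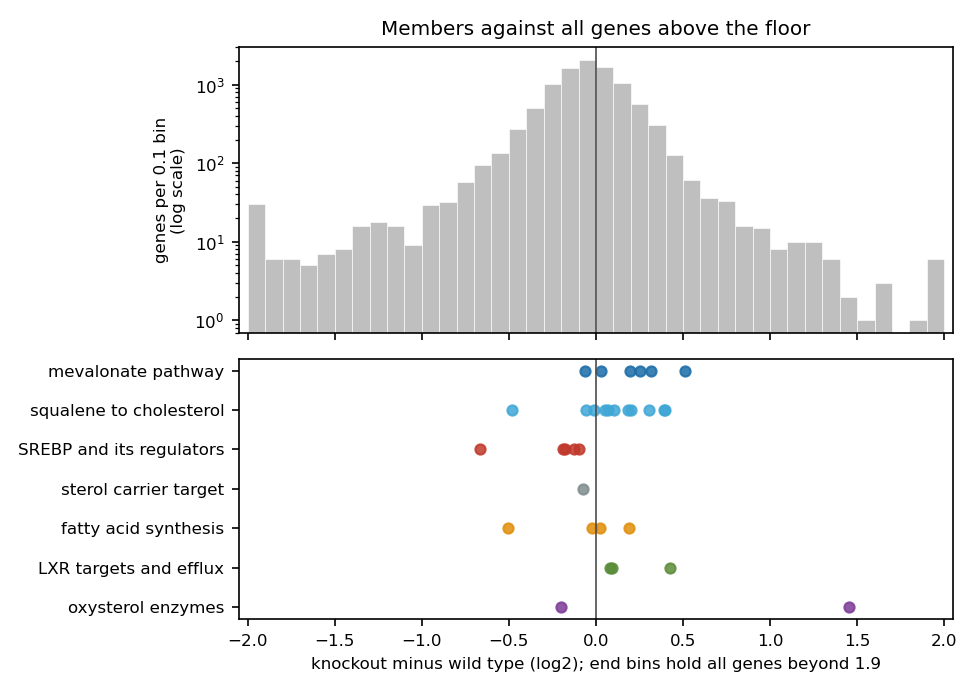
Upper panel: number of genes (log scale) by knockout minus wild type (log2, bins of 0.1) for the 9897 genes above the floor. Lower panel: the 32 members on the same axis by role; the synthesis enzymes centre at 0.18, the SREBP system at -0.18 and all genes at -0.05.

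Fatty acid synthesis had no common direction, with 2 of 4 members higher, where 40.0% of all genes were, and a median of 0.00. Acaca, the acetyl-CoA carboxylase that commits carbon to fatty acids, read 8.52 in the knockout and 9.02 in the wild type, a difference of -0.50 (1.42-fold lower; -0.15 with the mean of its probe sets, 1 of which is under the floor). Fasn, the fatty acid synthase, was nearly equal at 9.12 in the knockout and 9.09 in the wild type (0.02). Acly, which supplies acetyl-CoA from citrate to both pathways, read 10.83 in the knockout and 10.85 in the wild type (-0.02), but its other probe sets gave 0.06 and 0.50 and its sign turned with every rescaling. Elovl6, a fatty acid elongase, read 7.72 in the knockout and 7.53 in the wild type (0.19), with a further probe set at -0.14. Acaca was thus the fatty acid member farthest from 0 by the brightest probe set.

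The genes on the oxysterol and LXR side were kept apart from the SREBP targets. By the brightest probe set the LXR targets were all 3 higher, where 40.0% of all genes were, though Abcg1 changed sign with the mean of its probe sets. Mylip, a ubiquitin ligase for lipoprotein receptors, read 9.38 in the knockout and 8.95 in the wild type, a difference of 0.43 (1.34-fold). The cholesterol exporters Abca1 (9.56 in the knockout and 9.46 in the wild type, 0.09) and Abcg1 (7.51 in the knockout and 7.43 in the wild type, 0.08) differed by less than the median gap between probe sets. With the mean of its probe sets, 1 of which is under the floor, Abcg1 stood at -0.13. Other probe sets of Abca1, under the floor in both arrays, gave 0.56 and 0.85.

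Cyp7b1, the oxysterol hydroxylase that inactivates oxysterols on the way to bile acids, had the farthest difference of the set. Its brightest probe set read 7.97 in the knockout and 6.51 in the wild type, a difference of 1.45 (2.74-fold higher), at rank 12 of 9897 genes from the highest. Another probe set, of a kind that can match several transcripts, read 7.28 in the knockout and 6.20 in the wild type (1.08), and a remaining one was at background in both arrays, at 3.94 in the knockout and 3.88 in the wild type. Since the wild-type signal lies under the floor, the gene was compared through its knockout signal alone; with low values raised to 7 the difference was 0.97 (under 2-fold).

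The other oxysterol enzymes did not share that difference. Ch25h, the cholesterol hydroxylase that makes an oxysterol substrate of Cyp7b1, was at background, with 5.30 in the knockout and 5.24 in the wild type. Cyp27a1, the mitochondrial sterol hydroxylase, read 7.15 in the knockout and 7.36 in the wild type (-0.20). Among 13 listed further oxysterol and bile acid enzymes and receptors, 6 were above the floor and their median was 0.04: Cyp7a1, the bile acid enzyme of liver, stood at 0.20 with signals near the floor, Rora, a nuclear receptor that binds sterols, at 0.16 with probe sets from 0.16 to 0.66, Osbp, an oxysterol-binding protein, at 0.04 and Hsd3b7, the enzyme after Cyp7b1, at -0.04. By the brightest probe set none of the 6 reached 1.5-fold, though Rora did at 0.66 with another probe set.

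Some markers of other cell types also differed between the arrays. Among the 8 fibroblast and perichondrium markers that passed the floor, 6 stood higher, where 40.0% of all genes did, and the median was 0.21. Col3a1 stood at 1.38, while Postn stood at -1.26 and Dcn at -0.17. The log2 of the summed signal of all 11 such markers with a probe set was 15.03 in the knockout and 14.73 in the wild type. Of 4 adipocyte markers above the floor, Lpl stood at 1.11 and Fabp4 at 0.51, and Cebpa at -0.48 and Pparg at -0.18. The log2 of the summed signal of all 6 with a probe set was 12.49 in the knockout and 12.02 in the wild type, and the adipocyte hormone gene Adipoq was at background (5.25 in the knockout and 4.98 in the wild type). For all 8 macrophage and leukocyte markers it was 9.84 in the knockout and 9.78 in the wild type. Of the 4 such markers above the floor, 2 were higher and 2 lower, and none passed 1.5-fold. The part of other cell types in the values of Cyp7b1 and of the synthesis enzymes was not tested.

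Further genes of the pathways were read from lists chosen by function. Of 23 other listed genes of sterol and lipid synthesis and uptake, 19 had a probe set and 17 were above the floor. Of these 17, 13 were lower, where 59.2% of all genes were, and 4 were higher, with a median of -0.11. This list mixes sterol genes with genes of fatty acid and other lipid metabolism, such as Scd1, Fads1 and Elovl5. Of its sterol genes, Lbr (-0.44), Npc1 (-0.37) and Tmem97 (-0.08) were lower and Npc2 (0.10) was higher. Acat1 stood at 0.24 with probe sets from -0.25 to 0.27. The list leaned lower, opposite to the cholesterol synthesis enzymes, and whether its mix bears on that was not tested. Me1, malic enzyme, which supplies NADPH to lipid synthesis, was farthest, at 9.51 in the knockout and 10.25 in the wild type (-0.74, 1.67-fold lower, and -0.39 with its other probe set). Aldoc, an aldolase, stood at -0.45, and Lbr, a nuclear envelope protein that is also a sterol reductase, at -0.44. Rdh11, a retinol dehydrogenase, stood at -0.43 with a further probe set at 0.13. Lbr and Tm7sf2 encode enzymes of the same reductase step, and their differences had opposite signs.

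The machinery that cleaves SREBP or degrades sterol sensors and enzymes was lower for 6 of 7 genes by the brightest probe set, where 59.2% of all genes were lower, with a median of -0.13. Mbtps1, the protease that makes the first cut in SREBP, is among the 6 at -0.12, but its 3 probe sets above the floor ran from -0.12 to 1.65, so no direction is given for it. Rnf139, a ubiquitin ligase, stood at -0.28, Ubxn4 at -0.18 with probe sets from -0.19 to 0.29, and Mbtps2, the membrane protease that releases SREBP, and Erlin1, a membrane scaffold, each at -0.13. These values are of the size seen for Srebf2 and Scap, and by the brightest probe set none reached 1.5-fold. The isoprenoid branches, which use farnesyl and geranylgeranyl diphosphate for prenylation, dolichol and ubiquinone, had -0.03 as their median. Higher signal was found for 4 of 9 genes, where 40.0% of all genes were higher. Pdss2, of ubiquinone synthesis, stood at -0.35 near the floor, Nus1, of dolichol synthesis, at 0.13 with probe sets from -0.11 to 0.24, and the geranylgeranyl transferase subunits Rabggtb and Rabggta at 0.11 and -0.08.

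Of 11 further genes of LXR signalling, cholesterol esterification and efflux above the floor, 1 passed 2-fold. Apoe, the apolipoprotein that carries exported cholesterol and a known LXR target, read 8.85 in the knockout and 7.41 in the wild type, a difference of 1.43 (2.70-fold higher) on 1 probe set. Pltp, a phospholipid transfer protein, stood at 0.21 on its used probe set and 0.22 on the other, Nceh1, a cholesteryl ester hydrolase, at 0.15 and Rxrb, a partner receptor of LXR, at -0.13. The median of these 11 genes was 0.04, so Apoe stood apart from the rest of its list in size.

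**Figure D5:**
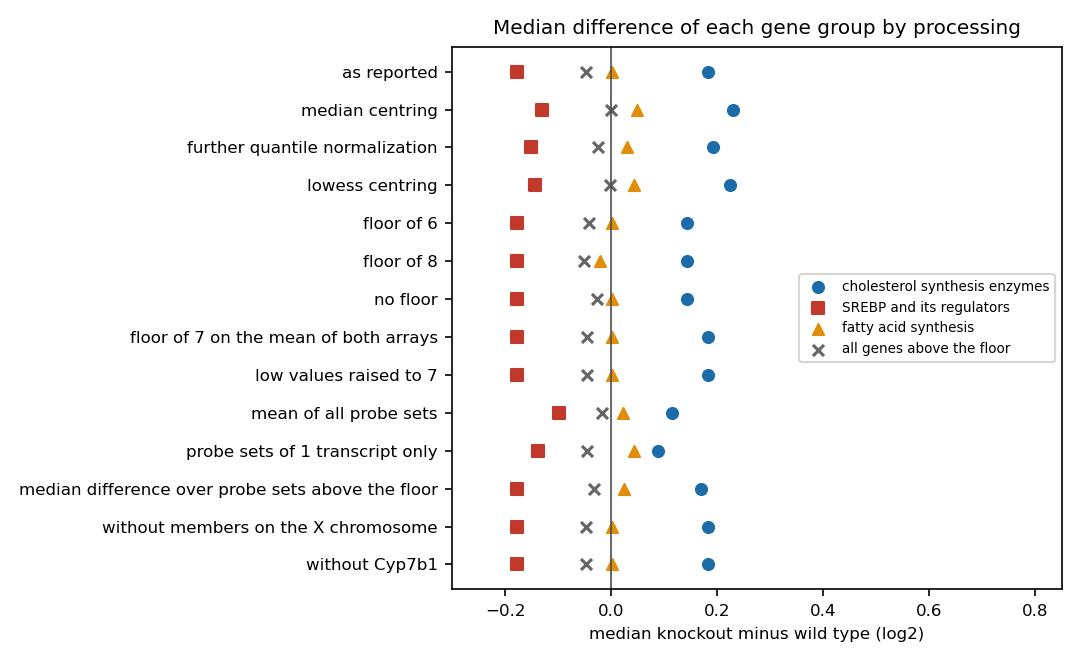
Median knockout minus wild type (log2) of the cholesterol synthesis enzymes, the SREBP system, the fatty acid enzymes and all genes above the floor, as reported and under each other way of processing. The enzymes stay between 0.09 and 0.23 and the SREBP system between -0.18 and -0.10 in all settings drawn.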

How the data were processed

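Titles of the 2 samples gave the groups. Per the labels' design text, the authors made the deposited log2 signals with Robust Multichip Average (RMA), which corrects background, normalizes arrays to a common distribution and summarises probe sets; per the submitters' processing notes this ran in Affymetrix Expression Console 1.1. The log2 scale was read from the values. A difference shared by most genes would be removed by this normalization, and dim signals are compressed. Of 45101 probe sets, 34945 had 1 gene symbol in the platform annotation, 932 had several, 9160 were unnamed here and 64 were controls. All 34 members with a probe set were found by Entrez identifier in RefSeq (GRCm38.p6).

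The brightest probe set of a gene, by its mean over the arrays, was used, with a floor of 7 in either array, and genes past 1.5-fold and 2-fold were tallied. No test was run on single arrays; the number of arrays limits the precision. Counting was tested on simulated data. The members, role groups and wider lists were chosen with earlier results of these data known. All members are named, and up to 4 genes farthest from 0 in each wider list; others are named for the comparison they enter. The other settings were 3 scalings, 4 floors, raised low values, 3 probe set rules and leaving out X-linked members. Leaving out Cyp7b1 was added after the data were seen. Python 3.11.15, pandas 2.3.3 and statsmodels 0.14.6 (lowess, span 0.2) were used.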

Additional observations from a re-analysis of the deposited data

How the results depend on the processing

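With 1 array per group, a median was taken to hold where it kept its sign and moved by under 0.1 on the log2 scale, and a count where it stayed within 1.5 times. The medians of all members (0.03 to 0.11), of the cholesterol synthesis enzymes (0.09 to 0.23) and of the SREBP regulators (-0.18 to -0.10) held in all 13 settings, and 11 to 14 enzymes were higher. Many of these settings could not move the SREBP median. The regulators read above 8 in both arrays and none is X-linked. Other floors, raised low values and leaving out X-linked members or Cyp7b1 therefore returned the same value. Median centring shifts every gene by the same amount, under 0.1. Leaving out Cyp7b1 likewise could not move the enzyme median. With a floor of 8 the fatty acid median turned to -0.021, the LXR and oxysterol median was 0.26, and 0 members were 1.5-fold or 2-fold higher, because Cyp7b1 fell under that floor; the same counts were 0 with the mean of all probe sets and without Cyp7b1. Cyp7b1 stood at 0.97 with low values raised to 7, leaving 0 members 2-fold higher, and at 1.27 with the median of its probe sets above the floor. With probe sets of 1 transcript only, Srebf1 had none, which left 0 members 1.5-fold lower, and 3 SREBP regulators were lower with Insig2 at 0.23; the mean of all probe sets left 4 lower. The sign turned in at least 1 setting for Acly, Sqle, Ggps1, Insig2, Scap and Abcg1. Signals near the floor limit what can be said of Cyp7b1, Mvd, Pmvk, Cyp27a1 and Ch25h. No paired analysis was possible because each group has 1 array.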

Other observations

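Probe sets of a gene did not differ evenly between the arrays, a pattern looked for after the values of Hmgcs1 and Acly were seen. Over 3838 genes with at least 2 probe sets above the floor, the next brightest probe set had the more positive knockout minus wild-type difference in 60.4% of genes, by 0.06 in the median. Where it was more than 1 log2 unit dimmer than the brightest, this was so in 67.0% of 1436 genes, by 0.11 in the median. Among the 14 members with 2 or more such probe sets it was so in 5, by -0.08 in the median. Scd2, a fatty acid desaturase, shows the range within a gene: its brightest probe set stood at -0.03 (11.87 in the knockout and 11.90 in the wild type) and another at 1.19. The cause was not tested.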
